A study of Mus musculus with 6 samples.

Results

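Isolated CpGs are here the cytosines listed in a methylation table that have no other listed cytosine within 500 bases on the same chromosome. The cytosine 1 base away, which belongs to the same CpG on the opposite strand, was not counted as a neighbour. By this rule, 10454 rows of the part of the table usable in all libraries were isolated (2.68%), beside 379754 other rows. The rule reads positions, but every listed row has a value in at least 1 library. The lowest value listed is 40%. A CpG under 40% in every library is thus not listed and not counted as a neighbour, so isolation can depend on methylation. Of the isolated rows, 4950 had a value in all 6 libraries and were used to compare levels. The rows used lie on chromosomes 1, 2, 10 to 19 and the first part of chromosome 3.

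The libraries were made by reduced representation bisulfite sequencing (RRBS) from primary intestinal organoids of mice with the Apc Min genotype, an allele that truncates Apc, a negative regulator of Wnt signalling. Both groups were grown with little glutamine in the medium. The 3 control libraries received the control treatment and the 3 others received DM-aKG, by the series title an α-ketoglutarate treatment, and the design text calls each group of 3 biological replicates. The question addressed is what DM-aKG does to CpG methylation in these cells. The labels and design text give no dose, duration, age or sex, and do not say whether the organoids came from separate animals, so the spread measured is that between these cultures.

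Cytosine methylation in mammals sits mostly at CpG dinucleotides, which are scarce along most of the genome and crowded in CpG islands. DNA methyltransferases such as Dnmt3a and Dnmt3b place the mark, and the TET enzymes, which use α-ketoglutarate as a co-substrate, oxidise it. RRBS cuts DNA with a restriction enzyme, commonly one that recognises CCGG, and reads the ends of the short fragments. An isolated CpG is one whose surroundings gave no other listed value.

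Promoter sequences were taken for the isolated positions that lie in them. RefSeq promoter windows of the GRCm38.p6 assembly cover 250 bases upstream of a gene's start and 50 bases downstream, and 18212 windows of 14928 genes lay on the chromosomes used. They held 130 isolated rows, each of them on a CpG, and 4095 other rows. The 10 stretches that follow were chosen to show isolated CpGs at CCGG read on 1 strand, isolated CpGs outside CCGG read on both strands, and isolated CpGs in CpG-rich windows. Each is written 5′ to 3′ on the strand of its gene, with the measured CpG in capitals.
Mtx3, chr13:92844568-92844649, plus strand: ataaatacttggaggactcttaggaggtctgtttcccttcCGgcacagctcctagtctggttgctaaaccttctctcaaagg
Gcnt2, chr13:40886654-40886735, plus strand: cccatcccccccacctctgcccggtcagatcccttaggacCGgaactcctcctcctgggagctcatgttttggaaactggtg
Ntsr2, chr12:16653397-16653469, plus strand: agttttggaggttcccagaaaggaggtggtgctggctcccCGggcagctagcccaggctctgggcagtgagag
P2ry14, chr3:59131201-59131282, minus strand: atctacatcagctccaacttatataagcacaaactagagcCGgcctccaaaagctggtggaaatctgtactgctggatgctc
Matn4, chr2:164405340-164405410, minus strand: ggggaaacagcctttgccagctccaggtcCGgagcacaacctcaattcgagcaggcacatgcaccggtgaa
Thpo, chr16:20730599-20730674, minus strand: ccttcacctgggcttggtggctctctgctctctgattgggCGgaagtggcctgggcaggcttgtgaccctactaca
Itgb7, chr15:102232051-102232132, minus strand: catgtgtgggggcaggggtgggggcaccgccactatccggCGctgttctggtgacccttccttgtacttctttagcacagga
Chat, chr14:32466066-32466147, minus strand: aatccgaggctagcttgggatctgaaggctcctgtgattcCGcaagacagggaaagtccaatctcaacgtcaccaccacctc
Fstl3, chr10:79777024-79777101, plus strand: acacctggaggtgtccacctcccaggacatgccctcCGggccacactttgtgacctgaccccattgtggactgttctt
Kif13a, chr13:46929762-46929843, minus strand: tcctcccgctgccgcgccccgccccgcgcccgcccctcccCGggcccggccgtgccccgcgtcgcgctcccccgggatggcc

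In the first 5 of these stretches the measured CpG is the centre of CCGG, and the table holds it on 1 strand only. Of all 130 isolated promoter rows, 38 were at CCGG (29.2%), against 11.7% of other promoter rows. Among isolated promoter rows valued in all 6 libraries, 18 of the 20 with no partner row on the other strand were at CCGG, a motif that reads the same on both strands. None of the 7 with a partner row was. Other promoter rows split the same way, with 245 of 295 single rows (83.1%) and 39 of 2283 partnered rows (1.71%) at CCGG. The motif was present in 53.4% of all windows, in 97.9% of windows with other rows and in all 114 windows with an isolated row. These are counts of letters, and no label names the enzyme used for these libraries.

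The values at these promoter CpGs ranged from full to intermediate methylation. The CpG of Gcnt2, which branches blood group I glycans, was at 100% in all 6 libraries. The CpG of Mtx3, a metaxin of the mitochondrial outer membrane, stood 160 bases before the start and read 95%, 78% and 87% in control replicates 1, 2 and 3 and 56%, 50% and 65% in DM-aKG replicates 1, 2 and 3. Every DM-aKG value of Mtx3 lay below every control value. The CpG of Ntsr2, a neurotensin receptor, read 71%, 56% and 67% in controls and 100%, 62% and 100% with DM-aKG, and its groups overlapped. P2ry14, a receptor for nucleotide sugars, read 97%, 89% and 85% against 80%, 88% and 88%. Matn4, an extracellular matrix protein, read 86%, 95% and 96% against 90%, 100% and 97%, again with overlap.

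The CpGs read on both strands show how far the strands of the same CpG can differ within a library. Whether such differences are noise was not tested. At Thpo, which encodes thrombopoietin, 1 strand was at 100% in every library and the other read 100%, 88% and 95% in controls and 88%, 100% and 100% with DM-aKG. At Itgb7, an integrin of lymphocytes that home to the gut, the strand with all 6 values read 57%, 68% and 70% against 83%, 76% and 50%. At Chat, which makes acetylcholine, that strand read 50%, 55% and 79% against 100%, 40% and 57%, while the other strand was at 100% in all 5 libraries that gave it a value. Across 257 isolated CpGs with both strands valued in all 6 libraries, the strands differed by 7.75 to 9.71 percentage points on average within a library. Their Pearson correlation across these CpGs was 0.640 to 0.773, given as a description since both strands come from the same library.

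In CpG-rich promoters almost no isolated row was complete. Windows with 10 or more CpGs held 77 of the 130 isolated promoter rows and 2530 of the 4095 other ones. Isolated rows were thus not more common there. Windows with an isolated row had a median of 13 CpGs per 300 bases, against 9 in windows with other rows only and 7 in all windows. In windows with 10 or more CpGs, 1 of 77 isolated rows had a value in all 6 libraries, compared with 26 of 53 isolated rows in windows with fewer. For other rows the shares were 58.7% and 69.8%. The table lists no level from 1% to 39%, and a 0 can mean either no call or a level below 40%, so a row in an unmethylated island appears only in libraries where it reached 40%. The CpG of Fstl3, an activin-binding follistatin relative with 25 CpGs in its window, had a value in 3 libraries, 48% in control replicate 1, 46% in DM-aKG replicate 1 and 42% in DM-aKG replicate 3. That of Kif13a, a kinesin with 62 CpGs in its window, had 48% in control replicate 2 and no other value.

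Isolated positions had a listed value less often than others in the rows used. A value in all 6 libraries was present at 47.4% of isolated rows and 70.4% of other rows. Isolated rows valued in 1, 2, 3, 4 and 5 libraries numbered 531, 2045, 1351, 734 and 843. A library had a value at 72.6% ± 2.08 (SD, n = 6) of isolated rows and 86.6% ± 1.77 (SD, n = 6) of others, lower in 6 of 6 libraries (exact two-sided sign-flip permutation p = 0.03125, the smallest that 6 libraries allow). Rows are listed only where a library had a value, so the rule and this share are not independent. The p gives consistency across libraries only. This share was 73.9% ± 2.37 (SD, n = 3) in controls and 71.3% ± 0.532 (SD, n = 3) with DM-aKG, and the groups overlapped (difference -2.57 percentage points, exact permutation p = 0.2). Without control replicate 3, the highest of the 6, that difference was -1.33. Only 63 isolated rows (0.603%) had a value in all 3 controls and in no DM-aKG library, and 49 (0.469%) showed the reverse, against 0.456% and 0.309% of other rows. The read depth behind every value is unknown, since the table gives levels without coverage.

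The isolated rows were far from their neighbours. The median distance to the nearest row was 4499 bases, with quartiles of 1865 and 10346, whereas other rows had a median of 15 bases and 82.7% of all usable rows lay within 50 bases of another. Only 940 rows fell more than 250 and up to 500 bases away, so few rows are near the limit of 500. The rows more than 400 and up to 500 bases from a neighbour, just outside the rule, averaged 83.8% over the 6 libraries (82 rows valued in all 6), and those more than 500 and up to 600 bases away, just inside it, averaged 85.1% (115 rows).

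Isolated positions were on average less methylated than the rest, and DM-aKG libraries had the higher mean at both. Over the 4950 isolated positions the mean level was 82.1%, 83.8% and 83.9% in control replicates 1, 2 and 3 and 84.1%, 84.6% and 84.9% in DM-aKG replicates 1, 2 and 3. The groups did not overlap, at 83.2% ± 1.02 (SD, n = 3) and 84.5% ± 0.392 (SD, n = 3), and the difference of 1.29 percentage points had an exact two-sided permutation p = 0.1, the smallest that 3 against 3 libraries can give. Without control replicate 1 the difference was 0.702. Other positions averaged 87.6% ± 0.726 (SD, n = 3) and 88.6% ± 0.281 (SD, n = 3), a difference of 1.05. The treatment difference at isolated positions exceeded that at others by 0.246 percentage points (exact permutation p = 0.4, where 0.1 is the smallest possible, so no difference could have passed 0.05).

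That treatment difference rested on the positions with all 6 values. Over every isolated position a library had a value at, control libraries averaged 81.5% ± 0.313 (SD, n = 3) and DM-aKG libraries 81.5% ± 0.397 (SD, n = 3), differing by 0.0205 (exact permutation p = 1). By the number of libraries with a value, the difference was -2.94, -4.47, -0.673, -1.31 and 0.201 percentage points at positions valued in 1, 2, 3, 4 and 5 libraries, and the groups overlapped except at those valued in 2 (exact permutation p = 0.1). Each library there averages a different set of rows, so these means do not compare the same CpGs.

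The gap between isolated and other positions was larger than the spread between libraries. Isolated positions averaged 83.9% ± 0.991 and others 88.1% ± 0.755 (SD, n = 6), a gap within libraries of -4.23 percentage points, lower in 6 of 6 libraries and running from -4.69 to -3.92 (exact sign-flip permutation p = 0.03125). All 16 contrasts of isolated and other positions made within libraries, over levels, spread, contexts and strands, had this same smallest p. Benjamini-Hochberg adjustment over the 16 leaves it at 0.03125. The 16 reuse the same rows, so they are not separate results. Their p describes consistency across libraries that share these positions. With any 1 library left out the smallest possible p is 0.0625, and the gap then stayed between -4.29 and -4.13.

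**Figure D1:**
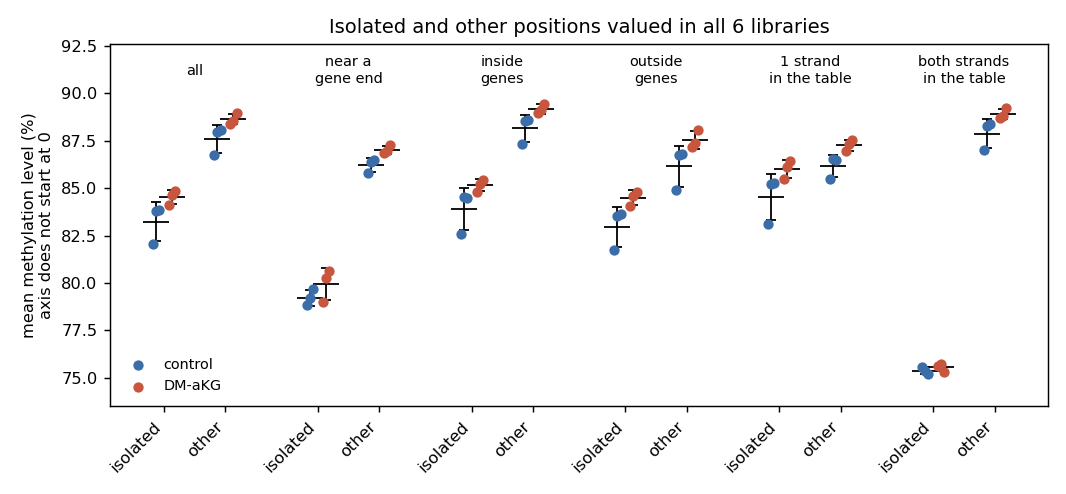
Mean methylation level in percent (vertical axis, not starting at 0) of isolated and other positions valued in all 6 libraries, for all of them, by gene context and by whether 1 or both strands of the CpG are in the table; points are libraries, bars the mean ± SD of 3. In every panel each library is lower at isolated than at other positions, and isolated positions with both strands in the table sit between 75.2% and 75.7%, with no separation of the groups.

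The size of that gap depended on whether the second strand of the CpG was also in the table. A row 1 base away was present at 14.2% of isolated positions and 83.3% of others. Isolated positions on 1 strand only (4246 rows) averaged 85.3%, and other positions of that kind 86.7%, a gap of -1.44 percentage points. Isolated positions with both strands present (704 rows) averaged 75.5%, and other positions of that kind 88.4%, a gap of -12.9. Both gaps had the same sign in 6 of 6 libraries (exact sign-flip permutation p = 0.03125). Controls and DM-aKG libraries averaged 84.5% and 86.0% at isolated positions on 1 strand, with no overlap (difference 1.47, exact permutation p = 0.1). With both strands present they averaged 75.4% ± 0.19 and 75.6% ± 0.217 (SD, n = 3) and overlapped (difference 0.196, exact permutation p = 0.3). Taking CpGs instead of rows, by averaging the strands, the gap between isolated and other positions was -3.16.

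The spread of levels was also wider. The standard deviation across positions was 14.9 percentage points at isolated positions and 13.5 at others, higher in 6 of 6 libraries (exact sign-flip permutation p = 0.03125). A level of exactly 100% was found at 16.2% of isolated and 25.02% of other positions, and 31.1% against 44.5% lay at 95% to 100%. Levels of 40% to 59% made up 8.98% of isolated and 5.51% of other positions, and levels of 60% to 79% made up 23.2% and 16.0%. All 6 libraries were at 100% at 80 isolated positions (1.62%, against 3.37% of others), and all 6 were under 60% at 41 (0.828%, against 0.588%). The share at 100% was 15.7% ± 1.89 (SD, n = 3) in controls and 16.7% ± 0.905 (SD, n = 3) with DM-aKG, with overlap (difference 1.03, exact permutation p = 0.6). Without control replicate 2, the library with the lowest share, that difference was 0.0135, and without control replicate 3 it was 1.88.

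**Figure D2:**
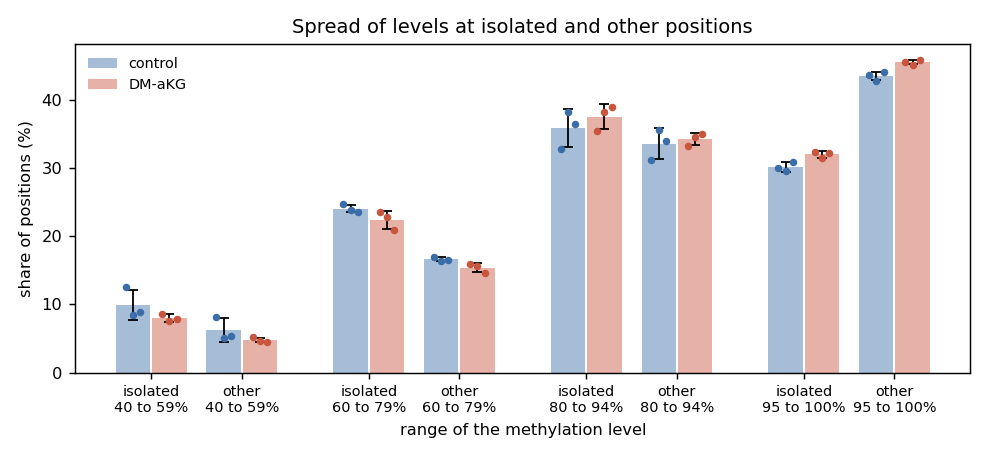
Share of positions in percent (vertical axis) in 4 ranges of methylation level, for isolated and other positions valued in all 6 libraries; bars are means of 3 libraries, whiskers SD and points libraries. Isolated positions have larger shares at 40 to 59% and 60 to 79% and a smaller share at 95 to 100% in both groups.

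Replicates also strayed further from each other. A library differed from the mean of its own group by 4.92 percentage points on average at an isolated position and by 4.28 at another, higher at isolated positions in 6 of 6 libraries (exact sign-flip permutation p = 0.03125). Across positions, however, pairs of libraries correlated at 0.548 to 0.752 at isolated and 0.573 to 0.742 at other positions, and only 4 of 15 pairs were lower at isolated ones. These correlations describe libraries that share the same positions.

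Levels were highest at rows with a very close neighbour. The mean over 6 libraries was 90.0% for rows 2 to 10 bases from the nearest row, 87.3% at 11 to 50 bases and 84.9% at 51 to 100 bases. Beyond 600 bases the bin means of isolated rows lay between 83.1% (more than 1000 and up to 2000 bases) and 84.4% (more than 20000 bases, 658 rows). In that farthest bin controls averaged 83.4% ± 2.04 (SD, n = 3) and DM-aKG libraries 85.4% ± 0.876 (SD, n = 3), and the groups overlapped. The most distant rows were thus not the least methylated. The lowest bin mean, 82.6%, was that of rows more than 250 and up to 400 bases from the nearest row (194 rows). These rows count as other positions, so a low mean was not particular to isolated rows. Rows more than 100 and up to 250 bases away averaged 85.4%.

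**Figure D3:**
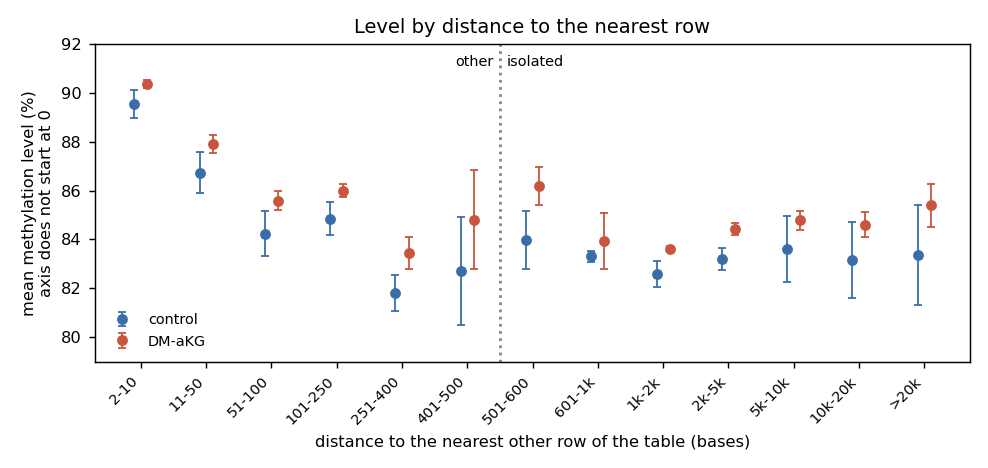
Mean methylation level in percent (vertical axis, not starting at 0) by distance in bases to the nearest other row of the table (horizontal axis, 13 bins), for positions valued in all 6 libraries; points are group means, bars SD of 3 libraries, and the dotted line marks 500 bases. Rows 2 to 10 bases from a neighbour stand at 90.0% over the 6 libraries, while all bins beyond 600 bases lie between 83.1% and 84.4%. The lowest bin, more than 250 and up to 400 bases, is at 82.6% and holds other positions.

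Gene context was taken from RefSeq gene spans of GRCm38.p6 (34610 protein-coding or lncRNA genes), without exons or strand, so promoters and exons were not separated here. Of the 4950 isolated positions, 444 (8.97%) lay within 1000 bases of a gene end, 3304 (66.7%) elsewhere inside a gene and 1202 (24.3%) outside. For other positions the shares were 11.9%, 71.4% and 16.7%. Rows near gene ends were the least complete, with 32.7% of isolated rows there valued in all 6 libraries, against 49.4% inside genes and 50% outside. Other rows were also least complete near gene ends, at 65.2%, against 71.8% inside genes and 68.5% outside.

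Isolated CpGs near gene ends were the least methylated. Near gene ends the control libraries averaged 78.8%, 79.2% and 79.7% and the DM-aKG libraries 79.02%, 80.3% and 80.6%, which overlap (difference 0.739, exact permutation p = 0.3, adjusted over the 3 contexts 0.3). Inside genes the values were 82.6%, 84.5% and 84.5% against 84.8%, 85.2% and 85.4%, with no overlap (difference 1.29, exact permutation p = 0.1, adjusted 0.15). Outside genes they were 81.8%, 83.5% and 83.6% against 84.0%, 84.6% and 84.8%, again with no overlap (difference 1.52, exact permutation p = 0.1, adjusted 0.15). Without control replicate 1 the differences inside and outside genes were 0.648 and 0.909. Near gene ends, leaving out DM-aKG replicate 1 gave a difference of 1.21 and leaving out DM-aKG replicate 3 gave 0.418. The gap to other positions was -7.02 percentage points near gene ends, -4.14 inside and -3.11 outside, each with the same sign in 6 of 6 libraries (exact sign-flip permutation p = 0.03125).

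Gene ends had the lowest mean both among CpGs on 1 strand and among those on both. CpGs with both strands in the table averaged 72.4% near gene ends (121 rows), 76.4% inside genes (417 rows) and 75.3% outside (166 rows). Those on 1 strand averaged 82.3%, 85.7% and 85.1%. Other positions on 1 strand were also lowest near gene ends, at 84.5%, against 87.1% inside genes and 86.3% outside. Other positions with both strands averaged 86.96% near gene ends, 88.96% inside and 86.97% outside. Outside genes, isolated positions 1000 to 10000 bases from a gene averaged 83.3% in controls and 84.2% with DM-aKG (812 rows), those 10000 to 50000 bases away 82.5% and 85.1% (373 rows), and the 17 farther ones 79.9% and 84.7%.

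The DM-aKG mean was higher than the control mean at isolated positions of all 13 chromosomes covered. The difference ran from 0.493 percentage points on chromosome 10 to 1.97 on chromosome 2. The isolated mean was also below the mean of other positions on all 13, by -5.04 on chromosome 18 to -3.55 on chromosome 11. Chromosomes share the same libraries and are not replicates.

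**Figure D4:**
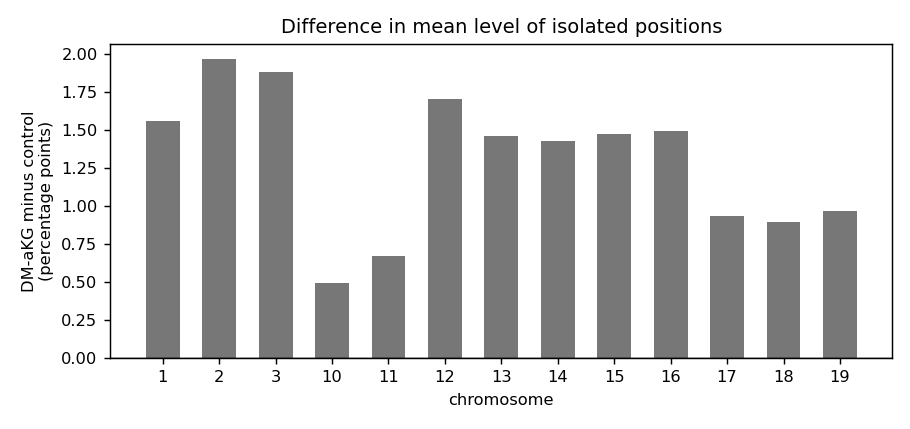
Difference in the mean methylation level of isolated positions, DM-aKG minus control, in percentage points (vertical axis) for each of the 13 chromosomes covered (horizontal axis); chromosome 3 is covered in part. Every bar is above 0, from 0.493 on chromosome 10 to 1.97 on chromosome 2.

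At single positions no isolated CpG passed the test. A limma fit of the percent levels over all 272327 positions valued in 6 libraries called 0 isolated positions at a Benjamini-Hochberg adjusted p under 0.05, as it did for the table as a whole (0% called). The smallest adjusted p at an isolated position was 0.698. At an unadjusted limma p under 0.05, 257 isolated positions (5.19%) were past the threshold, against 4.49% of all positions. The 95% interval of a difference at 1 isolated position had a median half-width of 12.7 percentage points, so a typical difference smaller than this lay within its own error.

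The directions leaned upward, near the background of the table. Higher with DM-aKG at an unadjusted limma p under 0.05 were 172 isolated positions (3.47%, against 2.87% of all), and lower were 85 (1.72%, against 1.62%). The groups did not overlap at 452 isolated positions (9.13%, against 7.13% of all), higher with DM-aKG at 297 (6%, against 4.63%) and lower at 155 (3.13%, against 2.5%). A difference of 10 points or more upward was found at 514 (10.4%, against 7.99%) and downward at 256 (5.17%, against 4.04%). A difference above 0 was found at 2743 (55.4%, against 53.3%) and below 0 at 2003 (40.5%, against 40.3%). With the library means made equal, which shifts the median difference by -1.05 points, the split at an unadjusted limma p under 0.05 turned to 99 higher (2%, against 1.7% of all) and 117 lower (2.36%, against 2.96%). This turn follows from the centring, which moves every position by about as much as the median difference, and says nothing of direction. The middle of the differences ran from -2.67 to 5 points between quartiles at isolated positions and from -2 to 4 at others, with medians of 1 and 0.667.

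A fit on log2 odds, the alternative scale, was run without the variance trend, so scale and moderation both changed. It called 6 isolated positions at an adjusted limma p under 0.05 (0.121%, against 0.149% of all positions). Of these, 2 were higher with DM-aKG (0.0404%, against 0.0911%). In 5 of the 6, 1 group was at exactly 100% in all 3 libraries, where the odds are set by the offset used, as it was in 406 of the 407 calls of the whole table. The 6 positions were those near Olfr1306, Pigm and Gm36719 and in Lgr5, Rbm27 and Gucy2g, and their levels follow.

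The positions with the smallest unadjusted p among those whose groups did not overlap are described next. They were picked for their difference, and their limma adjusted p values on percent levels lay between 0.698 and 0.831, so none of these differences passed the test. The lowest unadjusted p belonged to a position on chromosome 2 at 111928310, 15382 bases from the odorant receptor gene Olfr1306 and 2270 bases from the nearest row. It read 60%, 57% and 60% in control replicates 1, 2 and 3 and 89%, 88% and 89% in DM-aKG replicates 1, 2 and 3, a difference of 29.7 points (SE 2.79). The replicates of each group lay within 3 points of each other.

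Other positions that were higher with DM-aKG started from intermediate control levels. In Kcnt2, a sodium-activated potassium channel gene (chromosome 1, 140312138), the controls read 64%, 73% and 57% and the DM-aKG libraries 92%, 88% and 88%. In Dop1b, which encodes a trafficking protein of the Dopey family (chromosome 16, 93763547), they read 67%, 75% and 70% against 89%, 92% and 92%. In Nrcam, a neuronal cell adhesion gene (chromosome 12, 44372363), they read 54%, 52% and 56% against 73%, 69% and 67%. These 3 positions lie inside genes, 66481, 47041 and 43577 bases from the nearer gene end in Kcnt2, Dop1b and Nrcam. Near Galnt13, a gene for an enzyme that starts mucin-type O-glycans (chromosome 2, 54419324, 16887 bases away), they were 71%, 70% and 67% against 92%, 100% and 87%.

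A second kind moved between high levels and 100%. In 4930444P10Rik (chromosome 1, 16081752) the controls read 95%, 97% and 95% and every DM-aKG library 100%. Near Pigm, which adds a mannose in GPI anchor synthesis (chromosome 1, 172398580, 14481 bases away), they read 95%, 94% and 95% against 100% in every DM-aKG library. In Spdl1, a kinetochore adaptor for dynein (chromosome 11, 34821696), they read 90%, 90% and 92% against 100%, 98% and 100%. The difference at these 3 positions was under 9 points. In Arhgap8, a GTPase-activating protein gene (chromosome 15, 84739934), the values were 93%, 95% and 91% against 100%, 99% and 100%. In Mmp14, a membrane-bound matrix metalloproteinase gene (chromosome 14, 54434924), they were 99% in every control and 100% in every DM-aKG library, a difference of a single point, smaller than the 1.05 by which the library means differed.

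Positions that were lower with DM-aKG included 1 in Lgr5, the R-spondin receptor gene that marks intestinal stem cells. It lies on chromosome 10 at 115516113, inside the gene and 65799 bases from its nearer end. All 3 controls read 100%, and DM-aKG replicates 1, 2 and 3 read 91%, 90% and 84%, a difference of -11.7 points (SE 2.64, limma adjusted p = 0.831 on percent levels and 0.0452 on log2 odds). In Nedd4l, a ubiquitin ligase gene (chromosome 18, 64989888), the controls read 79%, 76% and 72% and the DM-aKG libraries 58%, 59% and 54%. In Ddn, which encodes dendrin (chromosome 15, 98804076), 294 bases from a gene end, they read 71%, 68% and 64% against 51%, 54% and 50%. These 3 genes and Mtx3, whose values are given with its sequence, had differences from -29.7 points at Mtx3 to -11.7 at Lgr5. The CpGs of Nedd4l and Ddn were read on both strands. With the strands averaged, their differences were -10.5 and -11.8 instead of -18.7 and -16. Near Ncoa2, a nuclear receptor coactivator gene (chromosome 1, 13133297, 5808 bases away), the values were 83%, 87% and 88% against 69%, 75% and 71%.

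Most of the rest left a control level of exactly 100%. Gucy2g, a guanylate cyclase gene (chromosome 19, 55213587), read 100% in every control and 92%, 92% and 93% with DM-aKG. This CpG was read on both strands, and with them averaged the difference was -4 instead of -7.67. Rbm27, an RNA-binding protein gene (chromosome 18, 42309128), read 100% in every control and 96%, 95% and 95%. Epb41l2, a membrane skeleton gene (chromosome 10, 25461374), read 100% in every control and 96%, 98% and 95%. Near Mbip (chromosome 12, 56314004, 14302 bases away) every control read 100% and the DM-aKG libraries 92%, 95% and 96%. The farthest from a gene, on chromosome 10 at 124514212, lay 483219 bases from Gm36719 and read 100% in every control and 88%, 90% and 83% with DM-aKG. In Dis3l2, an exoribonuclease gene (chromosome 1, 86937509), the controls read 100%, 99% and 100% and the DM-aKG libraries 96%, 97% and 97%. Of these 11 lower positions, 7 were within 1 point of 100% in every control.

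**Figure D5:**
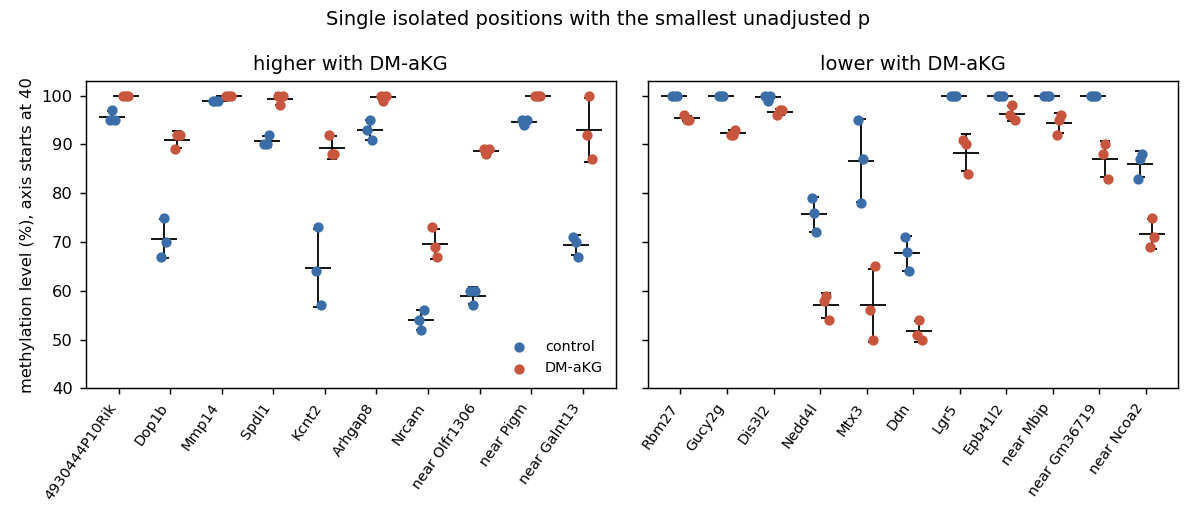
Methylation level in percent (vertical axis, starting at 40) at the isolated positions with the smallest unadjusted p whose groups do not overlap, 10 higher with DM-aKG and 11 lower; points are libraries and bars the mean ± SD of 3. Many of the small differences have 1 group at 100%. Kcnt2, Dop1b, Nrcam, the position near Olfr1306, Nedd4l, Mtx3 and Ddn have at least 1 group at intermediate levels.

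Isolated positions reached a minority of the genes in each pathway list, as they did of all genes. The list sizes can include genes on chromosomes not covered, so the list shares are not ranked against all genes. Isolated positions valued in all 6 libraries fell in or within 1000 bases of 2754 genes. The annotation held 34610 genes, and 10329 had any position valued in all 6 libraries. Of the 2754 genes, 2051 had a single isolated CpG. The genes were long, with a median span of 56.8 kb against 23.2 kb. No list member passed the adjusted limma test (0% of all positions did), and each list's median difference stands beside the median of 0.667 points over all positions.

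Among Wnt antagonists and the destruction complex, which restrain the pathway, 4 of 32 genes had isolated positions valued in all 6 libraries. Of their 6 positions, 1 was higher with DM-aKG and 5 were lower (median -2 points, and 0.25 without control replicate 1). In Wif1, a secreted Wnt inhibitor, the controls read 100%, 90% and 100% and the DM-aKG libraries 81%, 89% and 93%. Beside Sfrp5, a secreted Frizzled decoy, 414 bases from its end, they read 44%, 73% and 45% against 59%, 70% and 53%. In Notum, which strips a lipid from Wnt ligands, they read 91%, 64% and 58% against 61%, 72% and 63%. The groups overlapped at all 3.

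Among Wnt ligands and receptors, 11 of 38 genes had 18 such positions, 10 higher and 8 lower (median 1.17, and 4.5 without control replicate 1). At Ror2, a receptor tyrosine kinase for non-canonical Wnt ligands, the controls read 93%, 100% and 60% and the DM-aKG libraries 58%, 55% and 50%. The Ror2 groups did not overlap, but the control SD was 21.4. With both strands of this CpG averaged, the difference was -19.5 instead of -30. At Wnt3, a canonical ligand, the values were 93%, 81% and 85% against 92%, 100% and 100%. At Wnt9a, a ligand gene whose span here overlaps Gm51865, they were 42%, 54% and 51% against 52%, 52% and 70%. The groups overlapped at Wnt3 and Wnt9a. Of 24 stem cell genes and Wnt targets, 2 had 1 position each, both lower (median -10.2, and -5.08 without control replicate 2 or -5.33 without DM-aKG replicate 3). They are the Lgr5 position above and 1 in Cd44, a hyaluronan receptor gene, at 64%, 100% and 75% against 74%, 83% and 56%.

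Lineage genes had few positions and small differences. Of 28 enterocyte genes, 3 had 4 positions, 1 higher and 3 lower (median -2.17, and -0.25 without control replicate 1). Lct, the lactase gene, read 92%, 91% and 100% against 92%, 90% and 94%. Hnf4g, an intestinal transcription factor gene, read 97%, 86% and 93% against 88%, 86% and 95%, and Dpp4, a brush border peptidase gene, 100%, 93% and 85% against 83%, 100% and 100%. All 3 overlapped between groups. Of 29 secretory lineage genes, 2 had 3 positions, all higher (median 2.67, and -1 without control replicate 1). Agr2, which aids mucin folding, read 91%, 84% and 84% against 84%, 93% and 92%, and Chgb, an enteroendocrine granule gene, 82%, 95% and 96% against 92%, 100% and 89%, both with overlap.

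The genes that place and remove the mark were represented by 3 of 23, with 4 positions, 3 higher and 1 lower (median 1.33, and -0.917 without control replicate 2). Within Dnmt3a, a de novo methyltransferase gene (chromosome 12, 3815137), the controls read 89%, 87% and 82% and the DM-aKG libraries 69%, 74% and 74%. The Dnmt3a groups did not overlap, and the limma adjusted p was 0.831. Within Dnmt3b, its relative, the values were 94%, 75% and 81% against 89%, 86% and 80%. At a position inside both Tet1, whose product oxidises 5-methylcytosine, and Gm51805, they were 96%, 91% and 100% against 100% in every DM-aKG library. Among 38 genes of glutamine and ketoglutarate metabolism, 2 had 3 positions, 1 higher and 2 lower (median -3.67, and 2.67 without control replicate 1). Glud1, the glutamate dehydrogenase that makes α-ketoglutarate, read 96%, 76% and 70% against 62%, 77% and 52%, and Ogdhl, a relative of the α-ketoglutarate dehydrogenase subunit, 83%, 40% and 75% against 86%, 88% and 62%. Both overlapped.

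Of 31 colorectal tumour suppressor genes and oncogenes, 8 had 10 positions, 6 higher and 4 lower (median 1.5, and -1.25 without control replicate 1). Pik3ca, a lipid kinase gene, read 100%, 90% and 94% against 100% in every DM-aKG library. Stk11, the kinase gene behind a polyposis syndrome, read 100%, 70% and 89% against 93%, 100% and 100%, and the growth factor receptor gene Egfr stayed at 96% or above in all 6 libraries. Overlap was present at all 3 of these genes.

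Genes that mark other cell types an organoid culture could hold were covered too thinly to describe as groups. Of 16 fibroblast markers, 2 had 3 positions, all higher (median 6.67, and 2.83 without DM-aKG replicate 3). The collagen genes Col6a2 and Col6a1 read 96%, 95% and 96% against 99%, 98% and 99%, without overlap, and 50%, 61% and 68% against 65%, 75% and 74%, with overlap. Of 12 endothelial markers, 2 had 1 position each, both lower (median -4.5, and 2.25 without control replicate 1), in the transcription factor gene Erg (100%, 90% and 83% against 84%, 84% and 93%) and the adhesion gene Pecam1 (72%, 45% and 45% against 48%, 51% and 48%). None of the 16 immune markers had an isolated position valued in all 6 libraries. Methylation levels at so few positions do not show which cell types were present.

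The genes with the most isolated CpGs were long. Asic2, an acid-sensing ion channel gene of 1088 kb, Prkg1, a cGMP-dependent kinase gene of 1201 kb, and Cdh23, a cadherin gene of 394 kb, had 9 each. Beside them stood 212 other rows in Asic2, 89 in Prkg1 and 337 in Cdh23. The isolated shares were thus 4.50%, 9.18% and 2.60%. In Prkg1 the 9 positions averaged 75.2%, 76.2% and 81.2% in controls and 84.2%, 80.8% and 84.6% with DM-aKG, with 8 positions higher and 1 lower. The groups overlapped at the edge, and the difference was 5.63 points (exact permutation p = 0.2). In Asic2, where 1 CpG was read on both strands, the means were 69.9%, 74.8% and 80% against 75.4%, 75.7% and 82.7% (difference 3.03, exact permutation p = 0.4, and 0.533 without control replicate 1). In Cdh23 they were 79.3%, 78.6% and 80.9% against 73.7%, 79.9% and 84.2% (difference -0.333, exact permutation p = 1), and the sign turned when control replicate 3 or DM-aKG replicate 1 was left out. Single positions of these genes had mean levels from 56.7% to 93.3% in Asic2, 62.5% to 94.5% in Cdh23 and 58% to 99.7% in Prkg1, so neighbours within 1 gene did not share a level.

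Among positions valued in all 6 libraries, where a level under 40% cannot appear, the 5 farthest from any other row are given last. The farthest of them lay on chromosome 14 at 42103191, 687925 bases from the nearest row and outside any gene, the closest being 1700091H14Rik. It read 68%, 87% and 84% in controls and 97%, 92% and 86% with DM-aKG. A position on chromosome 13 at 5875872, 5479 bases from Klf6, a zinc finger transcription factor gene, read 100% in every control and 100%, 95% and 100% with DM-aKG. One on chromosome 3 at 48010106, 536310 bases from Gm46835, read 73%, 83% and 90% against 95%, 84% and 89%. All 3 overlapped between groups. A position within Gm40268 on chromosome 12 at 9590044 read 57%, 71% and 65% against 68%, 73% and 70%. The fifth, on chromosome 15 at 29725333 and 349800 bases from Gm41281, read 100%, 60% and 62% against 78%, 56% and 70%, with control replicate 1 apart from its group.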

How the data were processed

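DNA methylation was measured by RRBS in 3 control and 3 DM-aKG libraries. The authors deposited 1 table of percent methylation per cytosine, in whole numbers and without coverage, so depth is unknown and no interval from reads is given. Per the submitters' processing notes the build was mm10 and the tools CASAVA 1.8 and Novoalign 3.08.02; the methylation caller is not given in the sources used here. A 0 was treated as no value, since no value from 1 to 39 occurs. Of 813850 rows, those from 390209 onward were not used, because the columns no longer line up there. The start column counts from 1: of 4225 rows in promoter windows 4222 start at C or G and 4209 lie on a CpG.

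Library means were compared by exact two-sided permutation over the 20 assignments, and isolated with other positions by exact sign flips within libraries. Single positions were fitted in limma 3.58.1 (R 4.3.3) on percent levels, with a variance trend on the mean and Benjamini-Hochberg adjustment over all 272327 positions (threshold 0.05), without a replicate block. Other steps used Python 3.11.15 and scipy 1.17.1. Sequences are RefSeq's, matched by coordinates.

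The members, the 11 gene lists and the rules were chosen with earlier results of these data known. Named positions were, among those whose groups do not overlap, the 8 in or near genes and the 3 outside them with the smallest unadjusted p in each direction, up to 3 per list, the 5 most remote and the 3 genes with most isolated CpGs. One of these positions is not reported here. Promoter positions were picked after their values were seen. Alternatives changed the isolation distance, strand handling, treatment of 0, neighbours counted, gene end distance, scale, moderation, centring, block and libraries. The split by strand was added after the data were seen.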

Additional observations from a re-analysis of the deposited data

How the results depend on the processing

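Isolated positions stayed below others, with the same sign in all libraries used, under every alternative run for this gap, from -12.9 points with both strands present to -1.44 on 1 strand and -6.46 when only neighbours valued in all 6 libraries counted. Leaving out 1 library, this gap ran from -4.29 to -4.13 and the gap in replicate deviation from 0.528 to 0.657, all at an exact sign-flip p = 0.0625, the smallest 5 libraries allow. A 0 taken as a level of 0 turned the treatment difference to -2.08 (-1.94 near gene ends, -2.20 inside genes, -1.82 outside) and its excess over other positions to -1.59. That excess was -0.404 over every valued position and -0.840 with both strands present, and the difference in the share at 100% was -1.99 over every valued position. The cause was not tested. Leaving out 1 library gave 0.702 to 1.60 for the treatment difference. On log2 odds, without the variance trend, 6 isolated positions were called instead of 0. With the replicate number as a block the treatment difference was 1.29 (sign-flip p = 0.25) and 0 positions were called; deviations of same-numbered libraries correlated at 0.0189, -0.0086 and 0.0149, and the labels name no shared origin.

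Of 51 named positions, 39 kept their sign under every alternative run, and Mmp14, with a difference of 1, came to -0.0506 when the shift of 1.05 in library means was taken off. Leaving out 1 library turned the sign of the others and of 1 gene and 6 lists, whose ranges were as follows.
They were Notum -12.2 to 4.33, Cd44 -16.5 to 1.5, Lct -4 to 0.5, Hnf4g -5.33 to 0.167, Dpp4 -2.17 to 7.33, Chgb -1.83 to 5.17, Dnmt3b -2.5 to 7, Ogdhl -0.333 to 21.2, Erg -8 to 0.5, Pecam1 -9.5 to 4, Gm41281 -13 to 7, Cdh23 -2.81 to 2.46, the median of Wnt antagonists and destruction complex -6.92 to 0.25, the median of Secretory lineage genes -1 to 5.17, the median of DNA methylation machinery -0.917 to 2.58, the median of Glutamine and ketoglutarate metabolism -7.33 to 2.67, the median of Colorectal tumour suppressor and oncogenes -1.25 to 2.92 and the median of Endothelial markers -8.75 to 2.25 points.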

Other observations

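The part of the table beyond the rows used here has columns that still line up for control replicates 1 and 2 only, so it allows no comparison with DM-aKG. Applied there, the same distance rule gave 8119 isolated rows, of which 2614 had a value in both libraries, beside 231720 other rows. Isolated rows averaged 80.2% in control replicate 1 and 82.0% in control replicate 2, against 86.2% and 87.0% at other rows, gaps of -6.04 and -5.09 percentage points. A level of exactly 100% was found at 19.8% and 16.4% of isolated rows and 28.9% and 23.5% of others. The correlation of both libraries across rows was 0.626 at isolated and 0.661 at other rows, as a description. These rows were not used in any value of the report.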
